A study of Oryza sativa with 21 samples.

Results

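C-13 is a rice line in which the NRP1 gene was edited with CRISPR/Cas9, and its leaf transcripts were compared with those of the wild type (WT). The 3 C-13 libraries and the 3 WT libraries, 6 of the 21 libraries sequenced, were taken by their labels, and every gene that passed a count filter, 21044 in all, was tested. RNA came from the second leaf from the top of field-grown plants around heading, cut in the morning. The other lines were C-14 and C-16, edited at the same gene by the same method, and OE-2, OE-3 and OE-4, which overexpress it, with 3 libraries each. The labels describe C-13, C-14 and C-16 alike as CRISPR/Cas9 knockouts and give no sequence of any edit, no promoter for the overexpression and no cultivar. C-13 is 1 line, so what differs between it and WT cannot be told apart from what differs between any edited plant lineage and its parent. The labels do not say that the libraries of a line came from separate plants, and p-values then measure only the spread between libraries, which may be technical.

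NRP1 is presented in the study's title as holding photosynthesis down, and the comparison asks how the leaf transcriptome differs when that gene is edited. Photosynthesis in a leaf rests on antenna proteins that hold chlorophyll, 2 photosystems joined by an electron carrier complex, and the Calvin-Benson cycle that fixes carbon, and most of their proteins are encoded in the nucleus. Leaves also keep an inducible defence branch, in which salicylic acid signalling acts through NH1, a rice NPR1 homologue, and through WRKY transcription factors, a plant family that binds W-box elements. The phenylpropanoid pathway makes lignin and defence compounds from phenylalanine, and lipoxygenases begin oxylipin synthesis from fatty acids.

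Gene symbols stand for the locus printed beside them. The pairing of symbol and locus comes from general knowledge as used in an earlier analysis of these data, since neither the count table nor the reference gene table annotates these loci. The 40 loci besides NRP1 were drawn together partly for how they had moved in these libraries, so counts over them are descriptions and not independent evidence of a direction. A locus is said to have risen or fallen where its edgeR adjusted p was under 0.05, and levels are CPM, a library's counts scaled to a common total by the trimmed mean of M-values method (TMM), which are not adjusted for gene length.

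The C-13 and WT libraries held 13879204 to 18904053 counts each. TMM factors were 0.934 to 0.979 in C-13 and 1.01 to 1.05 in WT, and the 100 most abundant genes held 32.8% to 34.9% of the counts in C-13 and 30.3% to 33.0% in WT. The rubisco activase locus, a leaf mesophyll transcript, took 5.69% to 6.10% of the counts in C-13 and 4.95% to 6.17% in WT. The C-13 libraries were the closer set, with a median SD of log2 CPM of 0.17 against 0.22 in WT. Across genes, the mean Pearson correlation of log2 CPM was 0.986 among C-13 libraries, 0.98 with C-16, 0.978 with C-14 and 0.966 with WT, given as a description because genes are not independent replicates.

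NRP1 (OS07G0471900) was read first because it is the edited gene. Its level was 2.45, 1.93 and 3.00 CPM in the WT libraries and 3.14, 2.38 and 3.87 CPM in C-13. The ranges overlapped, and the log2 fold change was 0.36 (SE 0.18, edgeR adjusted p = 0.248, 95% interval -0.0098 to 0.72). C-14 stood at 2.01 to 2.27 CPM and C-16 at 3.01 to 3.47 CPM. An edit can disable a protein and leave its transcript in place, so this level does not test the label of C-13.

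Across all genes, C-13 differed from WT in 1262 of 21044 genes tested, or 6% (edgeR quasi-likelihood test, Benjamini-Hochberg adjusted p under 0.05). Of these, 483 were higher in C-13 (2.3%) and 779 were lower (3.7%). The lower genes had the larger differences, with a median log2 fold change of -1.17 (quartiles -1.85 and -0.70) against 0.86 (quartiles 0.58 and 1.53) for the higher ones. A change of at least 1 on the log2 scale was seen in 451 of the lower and 204 of the higher genes, and one of at least 2 in 166 and 77. The C-13 and WT libraries did not overlap in 746 of the 779 lower and 476 of the 483 higher genes, where over all genes tested the 3 C-13 libraries lay below all of WT in 12.8% and above all of WT in 13%. The genes were called on these same libraries, so the lack of overlap largely follows from the call and adds no support to it. In bulk leaf RNA, fewer cells of a type and less RNA per cell cannot be told apart. As a comparison of calls, 666 genes were called in C-14 against the same WT libraries (3.16%, with 1.8% higher and 1.37% lower) and 1342 in C-16 (6.38%, with 3.09% higher and 3.29% lower). The number of C-13 calls rested on WT replicate 1 more than on any other library: 222 genes were called without it. It was 485, 762 and 451 without C-13 replicates 1, 2 and 3. The excess of lower genes also depended on C-13 replicate 3, since 241 genes were higher and 210 lower without it. It was narrower without WT replicate 1, at 99 higher and 123 lower.

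The direction of change differed with abundance. Among the 1052 most abundant genes, the top 5% by mean level over the series, 66 were higher in C-13 (6.27%) and 28 were lower (2.66%), and their median log2 fold change was 0.11 against 0.01 over all genes tested. The top 10% held 98 higher and 53 lower genes. In each band below it the balance lay the other way: 59 genes were higher and 134 lower in the next 15%, 105 and 230 in the 25% after that, 122 and 212 in the 25% that followed, and 99 and 150 in the lowest 25%. These counts by band were not recomputed with libraries left out. They were not made for C-14 or C-16 against WT, so they are not shown to be particular to C-13. The plot of fold change against level shows the direction and the size of the changes. By the chromosome number in the identifiers, the share called ran from 4.97% on chromosome 3 to 7.3% on chromosome 4.

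**Figure D1:**
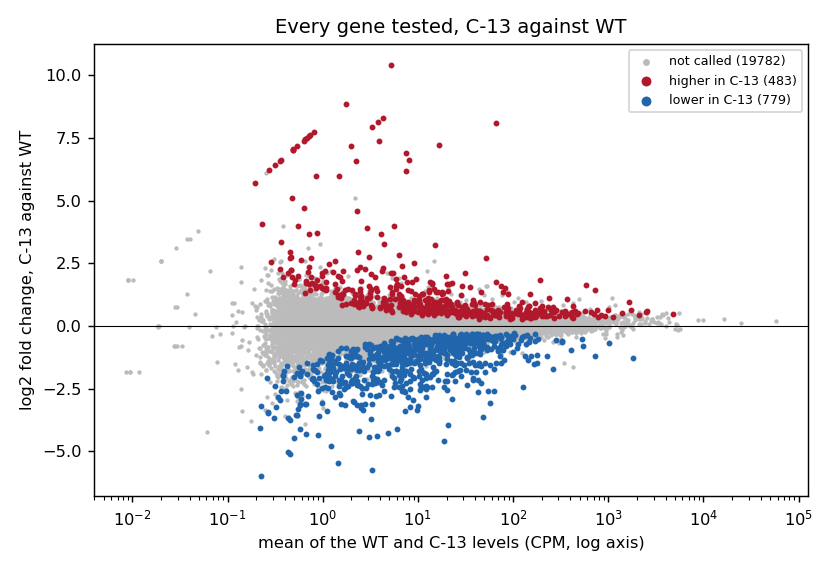
Log2 fold change of C-13 against WT (vertical axis) plotted against the mean of the WT and C-13 levels in CPM (horizontal, log axis) for every gene tested, apart from 16 without a read in either line. Red points are the 483 genes higher in C-13 and blue points the 779 lower ones (edgeR adjusted p under 0.05), and the blue points lie farther from 0 over most of the range.

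All 6 listed defence loci fell in C-13, with a median log2 fold change of -2.02, where 3.7% of all genes tested were lower and their median was 0.01. The loci were listed partly for how they had moved in these libraries, so this count is not independent evidence of a direction. The same holds for the counts of the other lists below. The count was 2 of 6 without WT replicate 1, 2 without C-13 replicate 3 and 3 without C-13 replicate 1. They are 3 WRKY factors, NH1 and 2 pathogenesis-related PR10 genes. WRKY76 (OS09G0417600), a WRKY factor known in rice to repress defence genes, had the largest change. Its level was 61.0, 16.3 and 30.0 CPM in the WT libraries and 0.786, 2.16 and 1.47 CPM in C-13. Every C-13 library lay below every WT library. The log2 fold change was -4.58 (SE 0.89, edgeR adjusted p = 0.00617), and it was called in all 28 alternative settings run, with an adjusted p of at most 0.0412.

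WRKY62 (OS09G0417800), a close relative of WRKY76 that also acts as a repressor in rice, was at 25.3, 2.79 and 5.92 CPM in WT and at 0.665, 0.541 and 0.763 CPM in C-13. WRKY45 (OS05G0322900), which promotes salicylic acid dependent resistance, was at 183, 35.1 and 65.2 CPM in WT and at 14.2, 17.96 and 15.1 CPM in C-13. WT replicate 1 was the highest WT library for all 3 factors, and the C-13 libraries lay below all of WT in each. WRKY62 changed by -4.11 (SE 0.90, edgeR adjusted p = 0.0122) and WRKY45 by -2.58, both as log2 fold changes (SE 0.57, edgeR adjusted p = 0.0128). Leaving out WT replicate 1, these became -2.71 and -1.67 and neither was called (edgeR adjusted p = 0.113 and 0.112). Neither call held without C-13 replicate 1 or 3, where the edgeR adjusted p ran from 0.0533 to 0.0616. WRKY62 and WRKY76 are related in sequence, and how reads shared between paralogs were counted is not given in the sources used here.

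Of the 3 WRKY factors, WRKY76 also differed between C-13 and the other edited lines. It stood at 54.4, 48.0 and 10.3 CPM in C-14 and at 3.53, 55.0 and 30.3 CPM in C-16, and no C-13 library reached any of these. Against the mean of C-14 and C-16 the log2 difference was -4.47 (SE 0.85, edgeR adjusted p = 0.019, 95% interval -6.25 to -2.70). Against WT, C-14 and C-16 had log2 fold changes of 0.07 and -0.28 with edgeR adjusted p = 0.969 and 0.847. The difference rested on having all 3 C-13 libraries: without replicate 1, 2 or 3 it was -4.18, -4.87 and -4.46 with edgeR adjusted p = 0.167, 0.105 and 0.138. It was not called in a fit of only the 3 edited lines either (edgeR adjusted p = 0.105).

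For WRKY45 and WRKY62 the difference from the other edited lines did not pass the threshold. WRKY45 was at 115, 97.9 and 60.1 CPM in C-14 and at 18.6, 110 and 75.1 CPM in C-16, and its log2 difference was -2.32 (SE 0.53, edgeR adjusted p = 0.0763, 95% interval -3.42 to -1.21). WRKY62 was at 9.08, 12.1 and 3.70 CPM in C-14 and at 1.51, 11.8 and 9.27 CPM in C-16, with a log2 difference of -3.57 (SE 0.86, edgeR adjusted p = 0.107, 95% interval -5.36 to -1.78). C-16 replicate 1 was the lowest library of C-14 and C-16 for all 3 factors and came nearest to C-13. Without it, both differences were called, at -2.54 and -3.82 (edgeR adjusted p = 0.0133 and 0.0327). Both were also called without WT replicate 1, a library outside this contrast (edgeR adjusted p = 0.0266 and 0.0322), with no filter (0.000568 and 0.00145) and by the DESeq2 Wald test (adjusted p = 0.00337 and 0.000698). Low WRKY levels were not seen in C-13 alone, since OE-2, an overexpression line, held 26.3 to 27.3 CPM of WRKY45, 0.561 to 2.41 CPM of WRKY62 and 2.43 to 7.28 CPM of WRKY76.

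NH1 (OS01G0194300), the salicylic acid response regulator, was at 32.3, 22.6 and 31.4 CPM in WT and at 15.4, 16.2 and 13.4 CPM in C-13. The lines did not overlap, and NH1 fell by 0.94 on the log2 scale (SE 0.16, edgeR adjusted p = 0.00239). PR10b (OS12G0555000) was at 63.8, 36.8 and 49.9 CPM in WT and at 24.7, 20.5 and 9.39 CPM in C-13 (log2 fold change -1.46, SE 0.40, edgeR adjusted p = 0.0355). PBZ1 (OS12G0555500), a probenazole-inducible PR10 gene, was at 169, 123 and 128 CPM in WT and at 99.6, 81.7 and 76.5 CPM in C-13 (log2 fold change -0.70, SE 0.19, edgeR adjusted p = 0.0308). NH1 was called with any 1 library left out, whereas PR10b was not called without WT replicate 1 or 3 or any 1 C-13 library (edgeR adjusted p of 0.0541 to 0.16), nor PBZ1 without WT replicate 1 or C-13 replicate 2 or 3 (0.0905 to 0.162). C-14 and C-16 had estimates below 0 for these loci too. For NH1, for instance, the log2 fold changes against WT were -0.54 in C-14 (edgeR adjusted p = 0.0638) and -0.86 in C-16 (edgeR adjusted p = 0.00447). C-13 did not pass the test of a difference from the mean of these lines in any of them: the 95% interval of the log2 difference was -0.53 to 0.05 for NH1, -0.64 to 0.82 for PR10b and -0.58 to 0.09 for PBZ1.

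**Figure D2:**
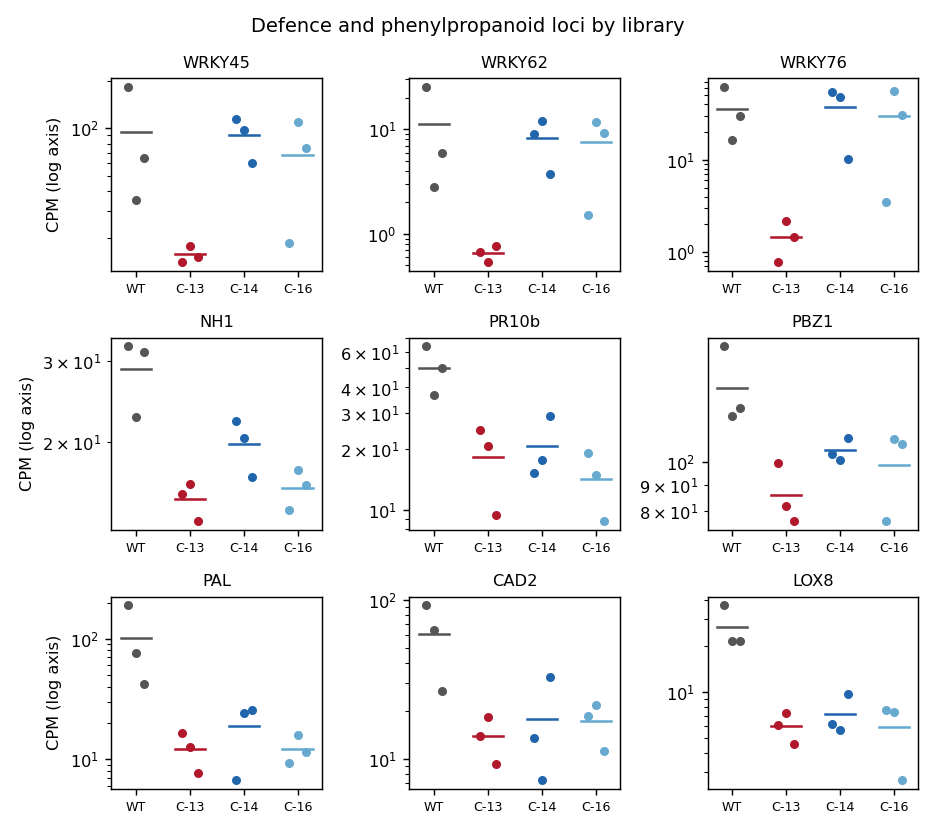
Level in CPM (vertical, log axis, a separate scale for each panel) of 9 defence, phenylpropanoid and lipoxygenase loci in WT, C-13, C-14 and C-16. Each point is a library and each bar the mean of 3. The C-13 points lie below the C-14 and C-16 points in the 3 WRKY panels and among them in the panels for PR10b, PAL, CAD2 and LOX8.

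The phenylpropanoid and lipoxygenase loci fell in C-13, 3 of 3, with a median log2 fold change of -2.16. Over all genes tested 3.7% were lower and the median was 0.01. Without WT replicate 1, 1 of the 3 was called. LOX8 (OS08G0508800), a lipoxygenase, was at 36.9, 21.7 and 21.5 CPM in WT and at 6.11, 7.25 and 4.58 CPM in C-13. With no overlap, its log2 fold change was -2.16 (SE 0.32, edgeR adjusted p = 0.000781), and it was called in all 28 alternative settings. PAL (OS02G0627100), a phenylalanine ammonia-lyase at the entry of the phenylpropanoid pathway, was at 189, 75.5 and 42.0 CPM in WT and at 16.4, 12.6 and 7.69 CPM in C-13. WT replicate 1 was again the highest, and every C-13 library was below every WT library (log2 fold change -3.07, SE 0.59, edgeR adjusted p = 0.0057). With WT replicate 1 left out the change was -2.27 and was not called (edgeR adjusted p = 0.0526). CAD2 (OS02G0187800), a cinnamyl alcohol dehydrogenase of lignin synthesis, was at 92.3, 64.3 and 26.8 CPM in WT and at 13.9, 18.4 and 9.27 CPM in C-13 (log2 fold change -2.14, SE 0.48, edgeR adjusted p = 0.0127). Its call ended without WT replicate 1 or C-13 replicate 1 or 3 (edgeR adjusted p of 0.0546 to 0.0846).

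Unlike WRKY76, these loci stood at overlapping levels in all the edited lines. PAL averaged 12.2 ± 4.4 CPM in C-13 and 12.2 ± 3.4 CPM in C-16, with 18.8 ± 10.5 CPM for C-14 (SD, n = 3 libraries each). LOX8 averaged 5.98 ± 1.34, 5.90 ± 2.82 and 7.19 ± 2.20 CPM in the same order. The 95% interval of the log2 difference of C-13 from the mean of C-14 and C-16 was -1.38 to 0.76 for PAL, -1.21 to 0.54 for CAD2 and -0.73 to 0.48 for LOX8. Each interval holds 0, and none is narrow enough to show that the lines are alike.

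Of 11 photosynthesis loci, 3 rose in C-13 and none fell, and the median log2 fold change was 0.43, with 10 of 11 estimates above 0. Over all genes tested 2.3% were higher and the median was 0.01. GAPB (OS03G0129300), a subunit of the chloroplast glyceraldehyde-3-phosphate dehydrogenase of the Calvin-Benson cycle, was at 4073, 4601 and 3366 CPM in WT and at 5879, 5376 and 5492 CPM in C-13. PetC (OS07G0556200), the Rieske protein of the cytochrome b6f complex, was at 1716, 1947 and 1660 CPM in WT and at 2653, 2345 and 2175 CPM in C-13. Lhcb4 (OS07G0558400), a minor antenna protein of photosystem II, was at 1970, 2437 and 1615 CPM in WT and at 3733, 2544 and 2956 CPM in C-13. No C-13 library overlapped WT in these 3, although C-13 replicate 2 lay just above the top WT library in Lhcb4. The log2 fold changes were 0.48 for GAPB (SE 0.12, edgeR adjusted p = 0.0259), 0.43 for PetC (SE 0.12, edgeR adjusted p = 0.0328) and 0.62 for Lhcb4 (SE 0.18, edgeR adjusted p = 0.0477). Each of these calls was lost without WT replicate 1, WT replicate 3 or C-13 replicate 1, with an edgeR adjusted p of 0.0842 to 0.215. Without C-13 replicate 2, PetC and GAPB were also not called, and without C-13 replicate 3, GAPB and Lhcb4 (edgeR adjusted p of 0.0506 to 0.104). In a fit of only the C-13 and WT libraries none of the 3 was called (edgeR adjusted p = 0.12 for Lhcb4, 0.112 for PetC and 0.123 for GAPB). Lhcb4 kept its call in 12 of 28 alternatives, and lost it among others with the replicate block (edgeR adjusted p = 0.0613), with DESeq2 size factors (0.0508) and without single libraries of OE-2, OE-3, OE-4, C-14 or C-16 (0.0501 to 0.0607).

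The antenna and photosystem loci that were not called had estimates of similar size. Lhca1 (OS06G0320500, antenna of photosystem I) had a log2 fold change of 0.46 (edgeR adjusted p = 0.0964), Lhcb6 (OS04G0457000) 0.60 (0.141) and Lhcb1.2 (OS01G0720500) 0.61 (0.468), where the last 2 belong to the antenna of photosystem II and the values in parentheses are edgeR adjusted p-values. PsaE (OS07G0435300), a photosystem I subunit, had 0.36 (edgeR adjusted p = 0.0768) and PsbQ (OS07G0544800), of the oxygen-evolving complex, 0.43 (edgeR adjusted p = 0.133). In Lhca1, Lhcb6 and PsbQ, C-13 replicate 2 lay within the WT range while replicates 1 and 3 lay above it. PRK (OS02G0698000, phosphoribulokinase) and RCA (OS11G0707000, rubisco activase) had 0.07 and 0.21, with edgeR adjusted p = 0.773 and 0.302. PsbR (OS07G0147500), another photosystem II protein, was the estimate below 0: it was at 515, 889 and 513 CPM in WT and at 194, 132 and 288 CPM in C-13 (log2 fold change -1.64, SE 0.67, edgeR adjusted p = 0.155). It was called lower in the fit of only the C-13 and WT libraries, where it was the 1 photosynthesis locus called (edgeR adjusted p = 0.0277), and with no filter (0.0367). It also varied widely within C-14 and C-16, from 39.3 to 714 CPM.

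C-13 estimates lay mostly under those of the other edited lines in these loci, and no difference passed. Against the mean of C-14 and C-16, 9 of 11 photosynthesis estimates were below 0 and none was called, with a median of -0.20 against -0.002 over all genes tested. PsbQ, for example, was at 1543, 1121 and 1383 CPM in C-13, at 1595 to 1895 CPM in C-14 and at 1558 to 1844 CPM in C-16, a log2 difference of -0.33 (SE 0.15, edgeR adjusted p = 0.68). Of the 11 loci, Lhca1, PsaE and PsbQ passed against WT in C-14 and in C-16 (edgeR adjusted p from 0.0117 to 0.0389) and not in C-13, which does not show that the lines differ. GAPB, PetC and Lhcb4, called in C-13, were also called above WT in C-14 and in C-16 (edgeR adjusted p from 0.0135 to 0.0327).

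**Figure D3:**
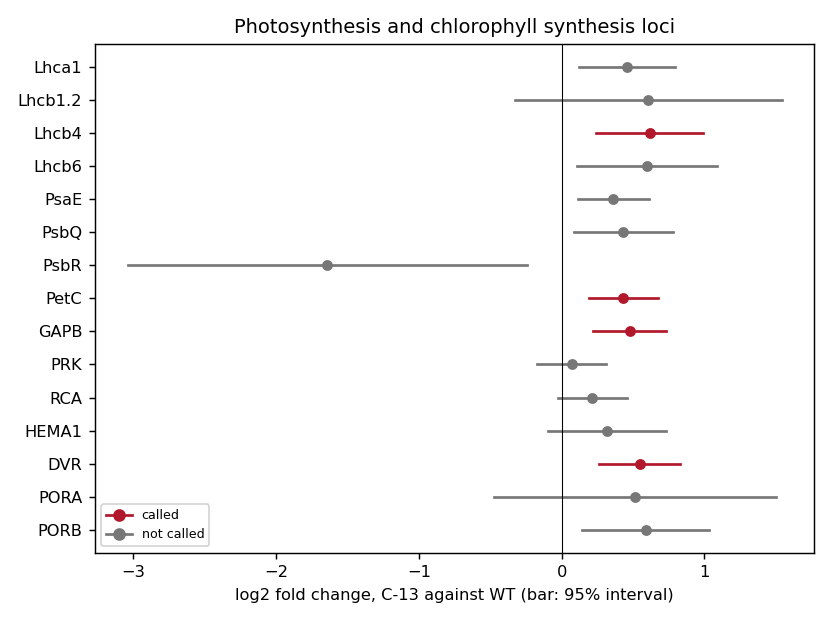
Log2 fold change of C-13 against WT (horizontal axis) for 11 photosynthesis and 4 chlorophyll synthesis loci, with 95% intervals from the edgeR fit as bars. Red marks the 4 loci that were called, GAPB, PetC, Lhcb4 and DVR; 14 of the 15 points lie above 0 and PsbR lies below.

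Among the chlorophyll loci, DVR (OS03G0351200), the divinyl reductase of chlorophyll synthesis, rose. It was at 70.1, 78.0 and 55.1 CPM in WT and at 112, 99.3 and 85.1 CPM in C-13 with no overlap (log2 fold change 0.55, SE 0.14, edgeR adjusted p = 0.0235). Another 3 synthesis loci had estimates above 0 that did not pass: HEMA1 (OS10G0502400, glutamyl-tRNA reductase) at 0.32, and the protochlorophyllide reductases PORA (OS04G0678700) at 0.51 and PORB (OS10G0496900) at 0.59, with edgeR adjusted p of 0.109 to 0.576. NAP (OS03G0327800), a NAC factor that promotes leaf senescence and chlorophyll breakdown in rice, fell. It was at 56.9, 53.2 and 59.2 CPM in WT and at 32.8, 39.9 and 35.2 CPM in C-13 (log2 fold change -0.65, SE 0.17, edgeR adjusted p = 0.0269). RCCR1 (OS10G0389200), a reductase of chlorophyll catabolism, had a log2 estimate of -0.73 that did not pass (SE 0.22, edgeR adjusted p = 0.0579). The DVR call ended without WT replicate 1 or 3 or C-13 replicate 1 or 2, and the NAP call without WT replicate 1 or 3 or C-13 replicate 1 or 3 (edgeR adjusted p of 0.0588 to 0.12). None of these 6 loci was called against C-14 and C-16. DVR was also called above WT in C-14 and in C-16 (edgeR adjusted p = 0.0319 and 0.0148). NAP was called below WT in C-16 (edgeR adjusted p = 0.0236) and not in C-14 (0.0864).

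Of 4 light and flowering loci, 2 rose and none fell, where 2.3% of all genes tested were higher and 3.7% lower. PIL15 (OS01G0286100), a phytochrome-interacting bHLH factor, was at 86.4, 95.4 and 68.6 CPM in WT and at 144, 130 and 160 CPM in C-13 (log2 fold change 0.79, SE 0.18, edgeR adjusted p = 0.0126). CGA1 (OS02G0220400), a GATA factor that promotes chloroplast development, was at 28.7, 36.7 and 42.7 CPM in WT and at 52.6, 57.5 and 54.2 CPM in C-13 (log2 fold change 0.61, SE 0.15, edgeR adjusted p = 0.0239). In both, the C-13 libraries lay above all of WT. PIL15 was not called without WT replicate 1 or C-13 replicate 3, nor CGA1 without WT replicate 1 or 2 or any 1 C-13 library (edgeR adjusted p of 0.0588 to 0.142). Both loci were also called above WT in C-16 (edgeR adjusted p = 0.0265 for PIL15 and 0.02 for CGA1). Neither was in C-14 (edgeR adjusted p = 0.282 and 0.289). Hd3a (OS06G0157700), a florigen gene, was at 62.5, 76.9 and 78.5 CPM in C-13, overlapping 58.8 to 73.9 CPM in WT (log2 fold change 0.16, SE 0.12, edgeR adjusted p = 0.464). C-16 held more of it, 96.0 to 111 CPM, and C-14 75.7 to 88.8 CPM. The difference of C-13 from their mean was -0.33 (SE 0.10, edgeR adjusted p = 0.284). FKF1 (OS11G0547000), a blue-light receptor of flowering time, was near 1 CPM or under in C-13 and WT and was not called (edgeR adjusted p = 0.347).

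In nitrogen and carbon metabolism, GS1;2 (OS03G0223400), a cytosolic glutamine synthetase, was the 1 locus of 4 to rise. It was at 131, 160 and 146 CPM in WT and at 246, 226 and 247 CPM in C-13, so that the lowest C-13 library stood well above the highest of WT (log2 fold change 0.71, SE 0.14, edgeR adjusted p = 0.006). Leaving out WT replicate 1 gave 0.64 and ended the call (edgeR adjusted p = 0.053). GS1;2 was also called above WT in C-16 (edgeR adjusted p = 0.00792) and not in C-14 (0.0943). Its mean was 239 CPM in C-13, 235 CPM in C-16 and 195 CPM in C-14. GS1;1 (OS02G0735200), its paralog, was at 1310, 973 and 944 CPM in WT and at 856, 817 and 672 CPM in C-13. That was also free of overlap but did not pass (log2 fold change -0.46, SE 0.14, edgeR adjusted p = 0.0605). ASN1 (OS03G0291500, asparagine synthetase) and SSI (OS06G0160700, starch synthase I) had log2 fold changes of -1.95 and 0.31 with edgeR adjusted p = 0.0859 and 0.443. Among 5 tested loci of stress and other functions, CESA4 (OS01G0750300), a cellulose synthase of the secondary cell wall, rose from 0.260, 0.512 and 0.139 CPM in WT to 1.87, 1.08 and 0.704 CPM in C-13 (log2 fold change 1.94, SE 0.49, edgeR adjusted p = 0.0243). That call ended without WT replicate 1 or 3 or C-13 replicate 1 (edgeR adjusted p of 0.074 to 0.135). CESA4 was also called above WT in C-16 (edgeR adjusted p = 0.0295) and not in C-14 (0.213). SPX2, HSFA2a, HSFA2d and SLAC1 were not called (edgeR adjusted p from 0.174 to 0.593). SalT (OS01G0348900) was not tested, with 15 reads in C-13 and 6 in WT. In all, 18 of 39 tested loci were called, 8 higher and 10 lower, where over all genes 6% were called, 2.3% higher and 3.7% lower. Because the loci were listed partly for how they had moved in these libraries, a larger share than over all genes was partly set by that choice. Of the 39, 1 differed from C-14 and C-16, against 0.328% of all genes.

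What was particular to C-13 was asked of all genes by testing it directly against the mean of C-14 and C-16, a contrast that holds no WT library. It called 69 genes (0.328% of those tested), 27 higher in C-13 (0.128%) and 42 lower (0.2%). The differences were large: the median log2 difference was 2.44 for the higher and -2.01 for the lower genes, and 15 and 21 of them passed 2 in size. By mean level over the series, 29 of the 69 lay in the lowest 25% and 5 in the top 10%. A gene expressed in few lines ranks low by that mean, whatever its level in those lines. Against each line alone, C-13 differed from C-14 in 75 genes (0.356%; 19 higher, 56 lower) and from C-16 in 51 (0.242%; 21 higher, 30 lower). In the C-14 comparison the higher and lower genes were 0.0903% and 0.266% of those tested, and in the C-16 comparison 0.0998% and 0.143%. These counts moved with the low-count filter: a mean of at least 5 CPM over the series left 23 genes for the mean of the lines, 17 for C-14 and 7 for C-16. That filter can also drop genes expressed in few lines. By their identifiers, 8 of the 27 genes higher in C-13 were on chromosome 4, which held 8.59% of the genes tested, and 4 of the 42 lower ones were. No other chromosome had as many of the higher genes. The most lower genes were on chromosome 9, 6 of the 42, which held 5.3% of the genes tested.

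A second description counted genes whose 3 C-13 libraries all lay outside the range of the other 18 libraries. There were 66 above (0.314%) and 92 below (0.437%). The other edited lines had 57 above and 25 below in C-14, and 36 and 45 in C-16, while WT had 41 and 55. The overexpression lines reached 84 above and 74 below for OE-2, 127 and 155 for OE-4, and 451 and 571 for OE-3. C-13 thus had the most such genes among the edited lines and fewer than OE-3 or OE-4, while OE-2 had more above and fewer below. C-13 also had the smallest median SD of log2 CPM of the edited lines, 0.168 against 0.208 in C-14 and 0.179 in C-16. Whether that spread bears on the counts was not tested. Of its 66 upper genes, 10 were on chromosome 4, which held 8.59% of the genes tested. A C-13 mean more than 2 times the nearest other library was seen in 7, and 3 had no read in any other library. Of its 92 lower genes, 19 were on chromosome 2, which held 11.6% of the genes tested, and 3 lay more than 2 times under the nearest library. By the tests, however, chromosome 2 had a smaller share of lower genes than all genes tested. That share was 2.94% against WT, where it was 3.7% over all genes. Against the mean of C-14 and C-16 it was 0.0817%, where it was 0.2% over all genes. Chromosomes other than 2 and 4 were not counted in this way. The bars by line show these counts together.

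**Figure D4:**
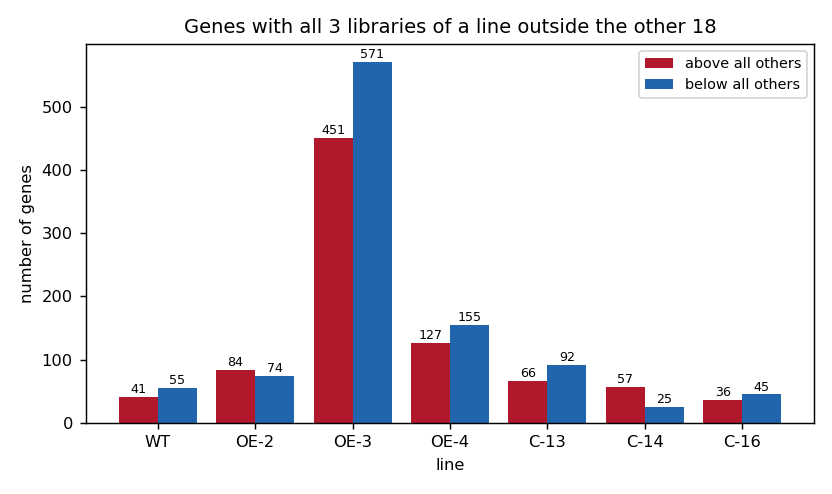
Number of genes (vertical axis) whose 3 libraries of a line all lie above (red) or all below (blue) the other 18 libraries in CPM, for each of the 7 lines. C-13 has 66 and 92, more than WT, C-14 or C-16, and OE-3 has the most at 451 and 571.

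Among genes with at least 5 CPM, non-overlapping libraries and a call that held without each WT or C-13 library, the loci with the largest differences had no or few reads in one line and several CPM in another. No symbol is given to them here. OS04G0483450, on chromosome 4, had no read in any WT library and was at 11.7, 10.1 and 9.33 CPM in C-13. Against the limit that 3 reads over the WT libraries allow, 0.0587 CPM, C-13 was at least 177-fold higher, and the edgeR adjusted p was 1.3e-08. C-14 and C-16 together held 4 reads of it against 539 in C-13, a log2 difference of 7.84 (SE 0.33, edgeR adjusted p = 2.96e-09). OE-2 also held some, at 3.30, 1.75 and 2.87 CPM, OE-4 was at 0.195 to 0.247 CPM, and OE-3 had none.

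OS06G0570000, on chromosome 6, was likewise higher in C-13 than anywhere else. It was at 6.41, 9.31 and 7.10 CPM in C-13, with 1 read in all of WT, and at 1.14, 1.43 and 2.19 CPM in C-14 and 0.224, 0.491 and 0.697 CPM in C-16. The log2 difference of C-13 from the mean of those lines was 3.15 (SE 0.34, edgeR adjusted p = 3.7e-05). C-14 and C-16 were also called above WT at this locus (edgeR adjusted p = 0.000428 and 0.0265), so that among the edited lines and WT the order of levels was C-13, C-14, C-16 and WT, with no overlap between neighbours. OE-2, at 1.24, 3.55 and 2.74 CPM, overlapped C-14, and OE-3 and OE-4 were at 0.0625 to 0.488 CPM.

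OS04G0422300 had the opposite pattern, with C-13 near WT and the other lines apart from it. It was at 0, 0.0541 and 0.0587 CPM in C-13 and at 0.156, 0.0569 and 0.139 CPM in WT, or 2 and 6 reads in all. C-14 was at 19.4, 22.3 and 17.9 CPM and C-16 at 15.1, 21.8 and 18.3 CPM. The log2 difference of C-13 from their mean was -8.70 (SE 0.75, edgeR adjusted p = 1.79e-06), and C-13 against WT was not called (edgeR adjusted p = 0.705). OE-2 and OE-4 were at 16.2 to 19.9 CPM and OE-3 at 0.649 to 8.25 CPM, so C-13 was the 1 line besides WT where this locus was near 0.

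OS04G0468000 fell in C-13 as it did in the other edited lines. It was at 13.5, 1.25 and 4.53 CPM in WT and at 0.0605, 0.271 and 0 CPM in C-13, or 346 and 6 reads (log2 fold change -5.73, SE 0.95, edgeR adjusted p = 0.00208). C-14 reached at most 0.390 CPM and C-16 at most 0.351 CPM, and C-13 did not pass a test against them (edgeR adjusted p = 0.984, 95% interval of the log2 difference -3.53 to 2.28).

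**Figure D5:**
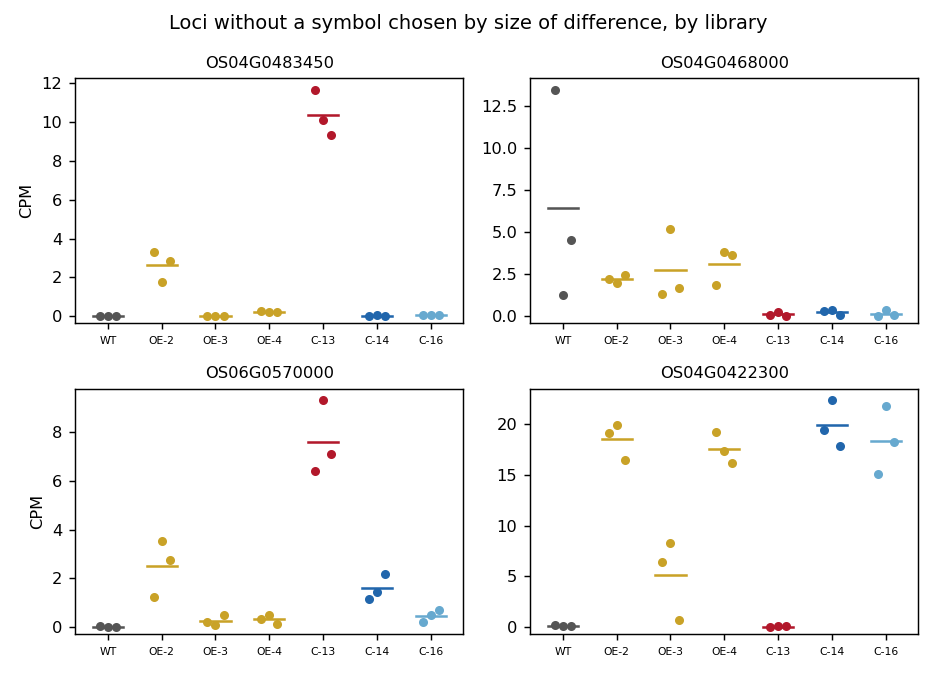
Level in CPM (vertical axis, linear, a separate scale for each panel) of 4 loci without a symbol in all 7 lines. Each point is a library and each bar the mean of 3; C-13 is in red. C-13 is the highest line at OS04G0483450 and OS06G0570000 and is near 0 with WT at OS04G0422300 and with C-14 and C-16 at OS04G0468000.

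Loci that switched between lines were counted with a locus taken as off where each of a line's 3 libraries was under 0.25 CPM and as on where each held at least 0.5 CPM, limits chosen after the data were seen. C-13 had 32 loci that were off in WT and on in C-13 (0.152% of the genes tested), against 45 in C-14 and 28 in C-16, while the overexpression lines had 23 (OE-2), 29 (OE-3) and 33 (OE-4). C-13 was thus within the range of the other lines. Of its 32 loci, 9 were also on in C-14 and C-16, and 6 were off in both. Chromosome 4, with 8.59% of the genes tested, held 4 of the 32 loci, and 3 of these were among the 6. OS04G0483450 is among these 3 and among the chromosome 4 genes counted above, so the counts by chromosome are not separate observations. Of the 6, 4 were off in all 5 other lines, and 1 of those 4 was on chromosome 4. A further 6 loci were off in WT and C-13 but on in C-14 and C-16, as OS04G0422300 was. In the other direction, 17 loci were on in WT and off in C-13, against 10 in C-14 and 24 in C-16, and 4 were off in all 3 edited lines. No locus was on in WT, C-14 and C-16 and off in C-13. With the limits at 1 and 0.1 CPM, the 32 became 12, the first 6 became 2, the further 6 became 1 and the 17 became 0.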

How the data were processed

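The authors deposited raw read counts per gene for 21 libraries of 7 rice lines in 1 table of 91080 identifiers, of which 56267 had no read in any library. Per the submitters' processing notes, the tools were STAR 2.5.3a, FastQC, Trim Galore and DESeq2, with IRGSP-1.0 as the build. How reads were counted, by strand or at several places, is not given in the sources used here, which leaves overlapping, antisense and near-identical genes uncertain.

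From these counts, edgeR 4.0.16 (R 4.3.3) fitted 1 quasi-likelihood model of the 7 lines with 14 residual degrees of freedom, after filterByExpr by line and TMM scaling, with Benjamini-Hochberg adjustment over all 21044 genes kept and a threshold of 0.05. C-13 was contrasted with WT, with the mean of C-14 and C-16, and with each of these. SE is the absolute log2 fold change over the square root of the F statistic, and intervals are 95%. Libraries totalled 13788243 to 19032786 counts, and replicate pairs of C-13 and WT differed by 9.6 to 31 times the sampling variance, so none was merged. The procedure was also run on simulated counts, which were drawn without an outlying library. That run cannot speak to calls that rest on a single library.

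Members, lists and rules were chosen with earlier results of these data known. The genes named were NRP1; the listed loci; any of them among the 10 each way with the largest change against WT, or the 8 each way against C-14 and C-16, with non-overlapping libraries, at least 5 CPM and a call that holds without each WT or C-13 library; and 4 identifiers without a symbol, those with the largest changes under the same rule. Promoter motifs and families by gene description were planned and are not analysed here, and of the identifiers 1 matched the reference gene table. Results were recomputed with each library left out, the replicate block, only the libraries compared, size factors or the Wald test of DESeq2 1.42.0, a filter at 5 CPM or none, and a minimum absolute log2 fold change of 1.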

Additional observations from a re-analysis of the deposited data

Results flagged for a closer look

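These 4 results are the named loci where C-13 differed from the other edited lines in a direct test against the mean of C-14 and C-16. That test called 69 of all genes tested (0.328%). The 4 were named by lists and rules chosen with earlier results of these data known. They were WRKY76 with a log2 difference of -4.47, OS04G0483450 with 7.84, OS06G0570000 with 3.15 and OS04G0422300 with -8.70. The 3 loci without a symbol were called under each alternative that kept them, with an edgeR adjusted p of at most 0.00067, and WRKY76 under 24 of 28. WRKY76 lost its call whichever C-13 library was left out (edgeR adjusted p of 0.105 to 0.167) and with only the libraries compared (0.105). OS06G0570000 and OS04G0422300 were chosen for a call in this contrast that held without each C-13 library, so those outcomes were fixed beforehand. OS04G0483450 was chosen for the size of its change against WT, a contrast that holds the same C-13 libraries, so its outcome here is not independent of that choice. Groups of 3 libraries were not searched for single libraries far from the rest.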

How the results depend on the processing

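Each result was recomputed under up to 28 alternatives, 21 of which left out 1 library. Genes called against WT numbered 1240 with DESeq2 size factors, 655 with an absolute log2 fold change of at least 1, 764 with only the libraries compared, and 222 to 1531 with 1 library left out; 18 called loci of the lists became 8 with that fold limit and 3 to 21 with 1 library left out. Against the mean of C-14 and C-16, C-14 and C-16, calls numbered 164, 190 and 113 with no filter, 144, 173 and 91 by the DESeq2 Wald test and 23, 17 and 7 at a mean of at least 5 CPM. With 1 library left out they ran from 25 to 78, 36 to 94 and 26 to 57. The 1 listed locus called in the mean contrast became 3 with no filter or the Wald test, 0 with only the libraries compared, and 0 to 3 with 1 library left out. The balance of genes higher and lower than WT, 483 and 779, turned without C-13 replicate 3, to 241 and 210. Other directions turned in results that were not called: PRK against WT ran from -0.022 (without WT replicate 1) to 0.16, PR10b against the mean of C-14 and C-16 from -0.19 to 0.40 with values of -0.00717, -0.00307 and -0.0354 between, and OS04G0468000 in that contrast from -2.33 to 0.29. The cause was not tested. Sets that leave out a C-13 or WT library hold fewer samples by construction. Same-numbered libraries of C-13 and WT had deviations correlated at 0.141, -0.14 and 0.0909, so the numbers were not taken to pair them; with the replicate block 1228, 56, 74 and 42 genes were called in the 4 contrasts, and NRP1 had a log2 fold change of 0.36. Depth limits the loci under 1 CPM, among them CESA4 in WT.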
